A study of Mus musculus with 36 samples.

Results

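Arc, an immediate early gene of neurons, was followed through hippocampal RNA and through the chromatin at its own locus. It is 1 of 24060 genes in the RNA count tables, and it was present in all 12 RNA libraries. In the table of H2A.Z consensus peaks, 2 of 20213 peaks carry its name. Both were taken by name, whatever their values, but Arc itself was chosen with earlier results of these data known.

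Hippocampi came from C57BL/6J mice of 2.5 months (young) or 15.5 months (old). Naive mice were compared with mice that had gone through fear conditioning, a session of 5 min with 3 foot shocks of 0.5 mA for 2 s each, and brains were frozen 30 min after training. The series holds 36 samples, of which 12 are RNA libraries and 12 are chromatin immunoprecipitations of the histone variant H2A.Z, with 3 per age and condition. The remaining 12, of input chromatin, were not used. Total counts per RNA library ran from 9410843 to 13350561, and 17017 to 17436 genes had at least 1 count. The labels do not say whether the 3 libraries of a group came from separate mice, so the p-values below measure the spread between these libraries. The labels give no handling or context exposure for the naive mice. Libraries are named here by the number in their label.

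Arc is transcribed within minutes when a neuron is strongly activated, and its mRNA travels into dendrites, where it is translated near active synapses. The protein binds the endocytosis machinery and promotes the removal of AMPA-type glutamate receptors from synapses, and it is needed for lasting memories that depend on the hippocampus. It descends from a retrotransposon Gag protein and can assemble into capsids that carry RNA. H2A.Z is a variant of histone H2A that sits in nucleosomes around transcription start sites and is put there by the SRCAP and EP400 complexes.

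Arc RNA was higher after training at both ages, at about 2-fold of the naive level, and the naive libraries were the ones that differed most among themselves. Levels are in CPM, the count of a gene scaled to its library's total after TMM normalization, with a 95% interval for counting error alone. Library 79 of the young naive group held 1287 Arc counts, or 136 CPM (129 to 144). Library 81 of that group held 785 counts, or 59.9 CPM (55.8 to 64.3). Library 83 held 665 counts, or 55.0 CPM (50.9 to 59.4). Libraries 81 and 83 lay close together, and library 79 lay at the level of trained mice.

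In young conditioned mice, Arc stood at 165 CPM in library 73, 137 CPM in library 75 and 160 CPM in library 77, from 2188, 1647 and 1583 counts. The lowest of these, library 75 (131 to 144), could not be told from naive library 79 at this depth. In old naive mice the level was 93.1 CPM (87.9 to 98.6) in library 67, 62.3 CPM in library 69 and 60.0 CPM in library 71, from 1181, 679 and 669 counts. Here too 1 library stood above a close pair, but it stayed below every conditioned library. In old conditioned mice Arc reached 178 CPM in library 61, 176 CPM in library 63 and 134 CPM (128 to 141) in library 65, from 2014, 2009 and 1561 counts. Within each age no conditioned library fell below a naive one, whereas across ages naive library 79 lay just above old conditioned library 65.

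**Figure D1:**
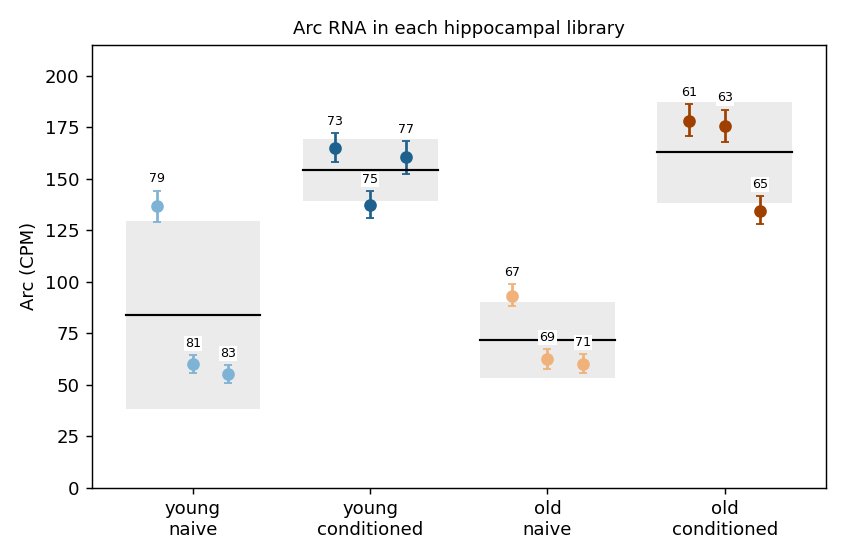
Arc RNA in CPM for each of the 12 libraries, labelled by number, with 95% intervals for counting error. The black line is the group mean and the grey box the mean ± 1 SD (n = 3). Naive library 79, at 136 CPM, sits beside the conditioned libraries, while the other 5 naive libraries sit between 55.0 and 93.1 CPM.

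Ordered by their means, old conditioned mice had 163 ± 24.5 CPM (SD, n = 3), young conditioned 154 ± 14.9, young naive 83.8 ± 45.7 and old naive 71.8 ± 18.5. The conditioned groups did not differ from each other beyond their spread, and neither did the naive groups. Between conditioned and naive mice of the same age the libraries did not overlap. The share of tested genes separated and higher in this way was 7.14% in young and 6.57% in old mice. In young mice the gap was that between 137 CPM in library 75 and 136 CPM in library 79, whose counting intervals overlapped.

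The spread among naive mice was wide for a gene counted this deeply. The highest young naive library had 2.48 times the Arc of the lowest, against 1.55 times in old naive mice, 1.2 times in young conditioned and 1.32 times in old conditioned mice. The coefficient of variation was 54.5% for young naive and 25.8% for old naive mice, and after training it was 9.65% for young and 15% for old mice. On the log2 scale the young naive SD was 0.72, larger than that of 97.8% of the tested genes, whose median SD in that group was 0.14. The old naive SD of 0.35 exceeded that of 88.7% of genes, the young conditioned SD of 0.14 that of 65.4%, and the old conditioned SD of 0.23 that of 80.0%. Between-library variance was 265 times what counting alone would give in young naive mice and 16.5 to 55.8 times in the other groups, so sequencing depth does not limit the precision of these levels.

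Training was tested with edgeR's quasi-likelihood test over 14405 genes, with Benjamini-Hochberg adjustment. Over both ages Arc rose by 1.04 on the log2 scale (SE 0.18, 95% interval 0.65 to 1.42), which is 2.05-fold, with an adjusted p of 0.0407. It ranked 11 by p among 11 genes that rose past an adjusted p of 0.05, which is 0.0764% of those tested, and no gene fell past it. The two-sided exact permutation test, which exchanged libraries between conditions within each age, gave p = 0.005, the smallest it can give, and 0.025 after adjustment over 5 comparisons. The difference was positive for each library left out, but the adjusted p fell below 0.05 in 2 of these 12 fits, those without library 67 (0.029) and without library 79 (1.09e-05). Leaving out any one of libraries 61, 63, 65, 69, 71, 73, 75, 77, 81 or 83 took it to between 0.0511 and 0.189, so the call across all genes rests narrowly on the full set of libraries. The number of genes past the threshold went from 11 to 30 without library 79 and to 7 without library 71 or library 83.

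In young mice alone the training difference was 0.90 (SE 0.25, interval 0.36 to 1.43; unadjusted p = 0.00287, adjusted p = 0.730 by edgeR). In old mice alone it was 1.18 (SE 0.26, interval 0.63 to 1.72; adjusted p = 0.309 by edgeR). Neither passed the threshold, which 4 genes (0.0278%) passed as higher in young and 2 genes (0.0139%) in old mice. Arc libraries of the 2 conditions did not overlap at either age, as was so for 7.14% of tested genes that were higher in conditioned young mice and 6.57% in old mice. Taken over both ages the libraries did overlap, through libraries 79 and 65, and 0.174% of genes were fully separated and higher. With 3 libraries against 3 the exact permutation test cannot go below 0.1, and it gave 0.1 at each age. Without library 79 the young difference was 1.42 with an adjusted p of 0.00109, and the old difference, itself 1.18 again, had an adjusted p of 0.00139, since the 4 groups share 1 estimate of the spread.

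The age of the mice was not accompanied by a detectable difference in Arc. Old minus young was -0.20 (SE 0.26, interval -0.75 to 0.35; adjusted p = 0.810 by edgeR) in naive mice, and the exact permutation p was 1. In conditioned mice it was 0.08 (SE 0.25, interval -0.45 to 0.60; adjusted p = 0.911 by edgeR, exact permutation p = 0.6). Past the threshold in either direction were 8 genes (0.0555%) between ages in naive and 5 genes (0.0347%) in conditioned mice by edgeR, and 34 and 106 genes by DESeq2. The training difference of old mice exceeded that of young mice by 0.28 (SE 0.36, interval -0.48 to 1.04; adjusted p = 0.898 by edgeR). No gene passed this test of the difference (0%), although 1037 genes had an unadjusted p under 0.05 in edgeR, and DESeq2 called 1 gene. Without library 79 the naive age difference changed sign, to 0.33, and so did the difference between the responses, to -0.25.

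**Figure D2:**
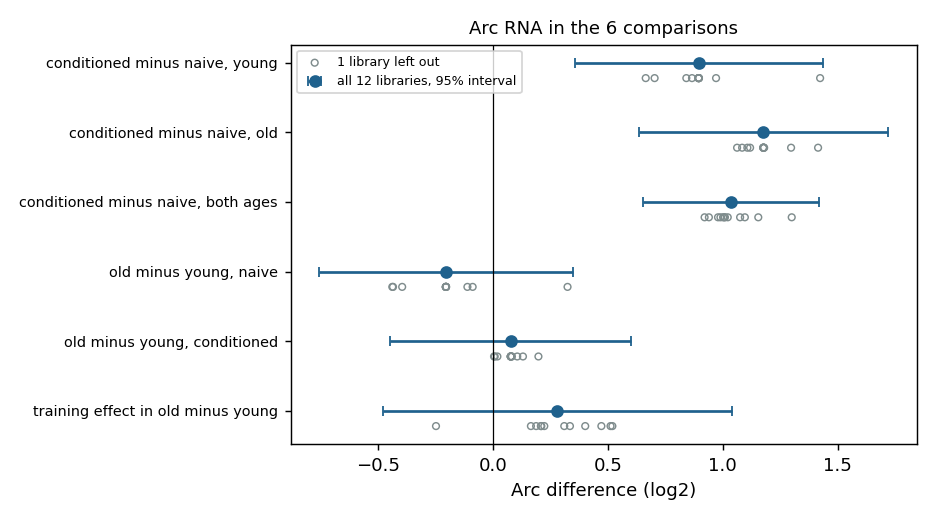
Arc difference (log2) in the 6 comparisons. Filled points with bars are the fit of all 12 libraries with its 95% interval, and open points the fits with 1 library left out. All training differences stay above 0, between 0.66 and 1.42, while the naive age difference and the difference between responses each have 1 open point on the other side of 0.

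Libraries high in Arc were high in other early activity-regulated genes too. Most of these are transcription factors and signalling genes that neurons and other cells switch on within the first hour of activity. The list also holds the vascular early genes Cyr61 and Apold1, and bulk tissue does not show in which cells a gene rose. Arc is not counted among the 31 listed here. Over both ages 9 of the 29 that were tested rose and none fell, where 11 of all 14405 genes rose (0.0764%). All 29 differences were positive, the smallest being 0.06, and their median was 0.55, against a median of 0.00 over all genes. Fosb, a partner in AP-1 transcription factors, rose 2.18-fold (SE 0.10 on the log2 scale; adjusted p = 6.06e-05 by edgeR), and Dusp1, a phosphatase that switches off MAP kinases, rose 2.10-fold with the same SE and adjusted p. Of the 29 genes, 11 had libraries fully separated and higher over both ages, as had 0.174% of all genes. Without library 79, 19 of the early genes passed the threshold, and without any other single library 7 to 9 did. In young mice alone 4 rose and in old mice alone 2, where 4 (0.0278%) and 2 (0.0139%) of all genes did, and none of them passed the threshold between ages.

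Of the whole table, the 5 genes whose log2 CPM followed Arc most closely over the 12 libraries, among 12963 genes with a mean log2 CPM of at least 1, were Fos, Nr4a1, Junb, Egr1 and Slbp. The measure was Pearson's r, and it is a description. Part of it comes from the difference between conditions, and the libraries share depth and tissue make-up, so r of the deviations from the 4 group means is given as well. Of the 20 most alike, 12 were early activity-regulated genes.

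Fos, the founding AP-1 subunit and a common mark of activated neurons, had r = 0.98 (Spearman's rho 0.91) with Arc, and 0.94 within groups. It stood at 10.2, 2.44 and 2.81 CPM in young naive libraries 79, 81 and 83, and at 20.7, 14.7 and 24.6 CPM in young conditioned libraries 73, 75 and 77. In old mice it stood at 5.76, 4.22 and 2.87 CPM in naive libraries 67, 69 and 71 and at 18.4, 20.9 and 15.7 CPM in conditioned libraries 61, 63 and 65. Unlike Arc, Fos did not overlap between conditions over both ages, and it rose by 2.06 (SE 0.26; adjusted p = 0.00199 by edgeR), but library 79 was again the highest naive one.

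Nr4a1, an orphan nuclear receptor, had r = 0.97 (rho 0.94, within groups 0.93). It had 68.9 CPM in library 79, against 25.6 and 28.7 CPM in libraries 81 and 83, and 65.8 CPM in conditioned library 75, so its young groups overlapped. Junb, another AP-1 subunit, had r = 0.96 (rho 0.92, within groups 0.87) and rose by 1.02 (adjusted p = 0.00231 by edgeR). Egr1, a zinc-finger factor that binds near the Arc start site, had r = 0.95 (rho 0.95, within groups 0.87). Its difference was 0.81 and missed the threshold (adjusted p = 0.0727 by edgeR), as did that of Nr4a1, 0.97 (0.0712). Egr1 stood at 131 CPM in library 79 and 116 CPM in old conditioned library 65, the same overlap that Arc showed.

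Slbp, which binds the stem loop of histone mRNAs, is the 1 gene of these 5 outside the early list. It had r = 0.95 (rho 0.89, within groups 0.96), but a small range, from 14.3 CPM in library 71 to 19.9 CPM in library 61. Its training difference was 0.22 (adjusted p = 0.711 by edgeR). Without the 2 libraries farthest from the Arc median, 81 and 83, r stayed between 0.93 and 0.98 for all 5.

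Within the 6 naive libraries the median r of the early genes with Arc was 0.66, with 22 of 29 above 0.5, against a median of 0.02 over all genes. Without libraries 79 and 67, the 2 farthest from the naive Arc median, it was 0.22, with 6 of 29 above 0.5, against -0.04 over all genes. Junb (-0.09) and Npas4 (-0.42) were below 0 without them. Those 2 libraries held most of the naive range of Arc, and the other naive libraries lay between 55.0 and 62.3 CPM. With so little range left, a fall in r was partly set in advance and cannot show what the likeness rests on. In the 6 conditioned libraries the median was 0.67 against -0.03 over all genes. Library 79 had the highest level of the 3 young naive libraries in 24 of the 29 early genes, where 38.1% of all tested genes had it highest. Library 67, the highest old naive library for Arc, was highest in 15 of 29, where 32.8% of all genes had it highest.

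**Figure D3:**
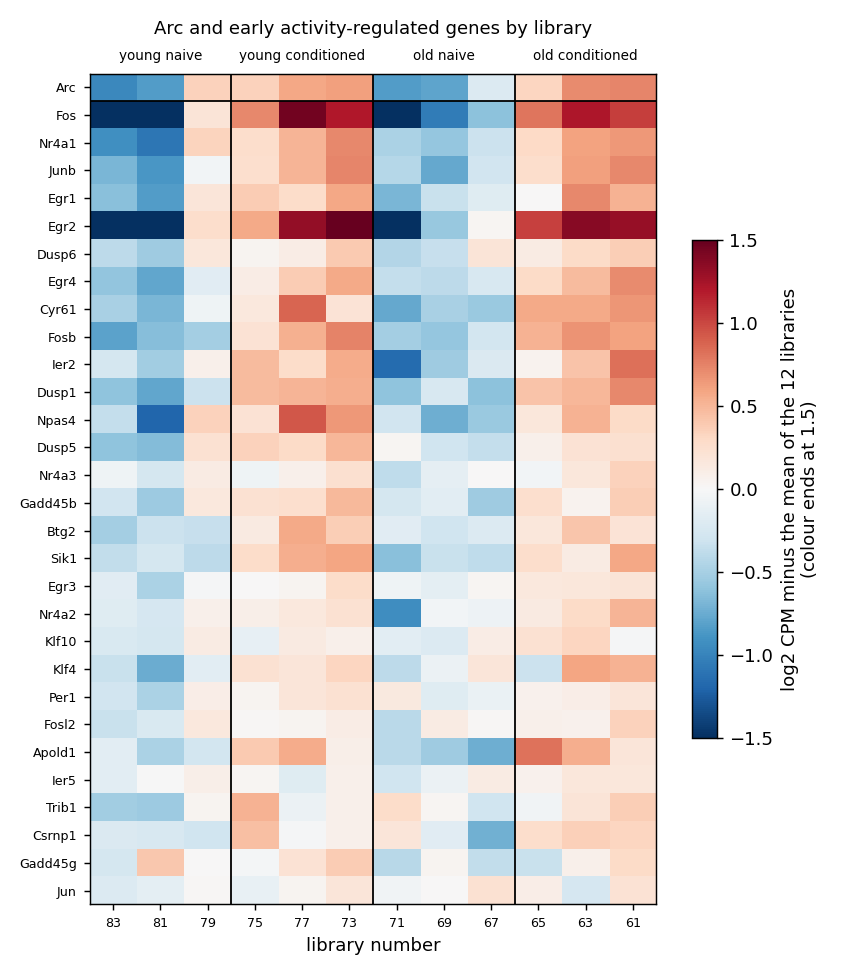
Log2 CPM of Arc and the 29 tested early genes in each library, minus the gene's mean over the 12 libraries, with genes ordered by their r with Arc. Library numbers are below, and colours end at 1.5 log2 units. Naive library 79 is redder than libraries 83 and 81 for most of the upper genes, while Fosb and Dusp1 are blue in all naive libraries.

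In the 2 early genes with the smallest p, library 79 lay nearer to the other young naive libraries. Fosb stood at 7.63 CPM in library 79, 6.95 CPM in library 81 and 6.20 CPM in library 83, and its conditioned libraries ran from 12.7 to 18.5 CPM. Dusp1 stood at 9.75 CPM in library 79 against 7.03 and 7.94 CPM in libraries 81 and 83, with 16.5 to 20.2 CPM after training. For both genes library 79 was the highest young naive library but stayed below every conditioned library, which Arc, Nr4a1 and Egr1 did not. A choice by smallest p favours genes with little spread within groups, so this contrast was partly set in advance.

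The genes closest to Arc over the 6 naive libraries alone were other genes, and none of the closest 20 was in the early list. They included St8sia4, a polysialyltransferase (r = 0.99), Zfp759, a zinc-finger gene (0.98), Coq5, of coenzyme Q synthesis (0.98), and the mitochondrial carrier Slc25a42 (0.98). Without libraries 79 and 67, r was 0.94 for St8sia4 but between -0.27 and 0.11 for the other 3, again over a narrow range of Arc. None of these 4 passed the threshold for training (differences 0.02 to 0.09, adjusted p at least 0.871 by edgeR). As the closest of 12963 ranked genes over 6 libraries, they had a high r by selection. Over all tested genes r in the naive libraries ran from -0.999 to 0.99, with 2681 of 14404 above 0.5. Fos had 0.96 there.

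Of the 19 tested genes listed as regulators of Arc transcription, which include SRF and its cofactors, CREB and its coactivators, MEF2 factors and the kinases upstream, none passed the threshold over both ages. Their median was 0.03, with 13 of 19 above 0. The 2 with the smallest p were Egr1 and Npas4, an activity-dependent factor of neurons. Npas4 had a difference of 0.91 (SE 0.20; adjusted p = 0.203 by edgeR), and in naive libraries it stood at 10.5 CPM in library 79 and between 3.51 and 6.72 CPM in the other 5. Both are early genes themselves, and the list shares them.

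Among 19 tested genes listed as synaptic and secreted effectors, a list that also holds enzymes, 1 rose and the median was 0.06. It was Tiparp, a mono-ADP-ribosyltransferase, with a difference of 0.39 (SE 0.07; adjusted p = 0.0378 by edgeR). Syne1, whose products include the synaptic endocytosis protein CPG2, had the next smallest p, at -0.18 (adjusted p = 0.350). A pair from this list was looked at after its values were seen, because it often accompanies Arc. Homer1, a postsynaptic scaffold with an activity-induced short form, differed by 0.11 (adjusted p = 0.831), and its highest naive levels were also in library 79, at 241 CPM, and library 67, at 213 CPM. The first lay above all conditioned libraries, which ran from 190 to 225 CPM, and the second among them. Bdnf, a neurotrophin, differed by -0.03 (adjusted p = 0.969).

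Genes of the synaptic machinery through which Arc acts had small differences. None of 16 endocytosis genes passed the threshold, and their median was 0.03. The smallest p values were those of Pick1, which binds AMPA receptor tails (0.15), and Sh3gl2, an endophilin (0.10), both with an adjusted p of 0.711 by edgeR. None of 10 AMPA receptor subunits and auxiliary proteins passed, with a median of -0.01, and Cacng3 (0.18) and Cnih3 (-0.11) had the smallest p. Gria1, the main hippocampal subunit, looked at after its values were seen, differed by -0.01 with an interval of -0.09 to 0.07. Of 15 genes of the postsynaptic density none passed and 3 were above 0, with a median of -0.03. The NMDA receptor subunits Grin2a (-0.15) and Grin2b (-0.13) had the smallest p there, with an adjusted p of 0.711 for each.

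None of the 15 genes that govern Arc mRNA passed the threshold (median 0.02). This list holds the exon junction complex and the nonsense-mediated decay that limits Arc mRNA after translation, and carriers into dendrites. Rbm8a, of the exon junction complex, differed by 0.14 and Stau1, a dendritic RNA carrier, by 0.09. The 5 genes of Arc protein turnover had a median of 0.01, and the ubiquitin ligase gene Ube3a differed by -0.02. Of 15 other genes descended from Gag proteins, 12 were tested and none passed, with a median of 0.06. The largest difference was that of Ldoc1, 0.47 (SE 0.22; adjusted p = 0.713 by edgeR). H2A.Z genes and their machinery, with 13 tested, had no gene past the threshold and a median of 0.03.

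Cell type make-up was read from marker genes. Markers of excitatory neurons, 8 of 8 detected, summed to between 6301 and 7799 CPM per library, and those of CA1 and dentate granule cells were present in every library. Choroid plexus, which lies against the hippocampus, varied most. Its 12 of 12 markers summed to 481 to 4756 CPM in young naive and 412 to 2965 CPM in old naive libraries, and to 238 to 3548 CPM in young conditioned and 238 to 399 CPM in old conditioned ones, and Kcne2 and Slc4a5 were at 0 in a young conditioned library. Over both ages all 12 choroid plexus markers and all 10 oligodendrocyte markers were lower after training, with medians of -1.44 and -0.20, though none passed the threshold. The 7 of 8 ependyma markers in the table, summing to between 17.0 and 55.4 CPM per library, were lower too (median -0.59), with none past it. Over the 12 libraries, which share the difference between conditions, r with Arc was -0.70 for the oligodendrocyte, -0.64 for the ependyma and -0.60 for the choroid plexus score. For neurons of the hippocampal subfields it was 0.47 for the CA1, -0.38 for the CA3 and -0.44 for the dentate granule cell score. Within the 6 conditioned libraries these were 0.78, -0.88 and -0.43, and within the 6 naive libraries 0.30, -0.65 and -0.28. Oligodendrocyte markers summed to 2852 to 3938 CPM in young naive and 2860 to 3135 CPM in old naive libraries, and to 2468 to 3333 CPM in young conditioned and 2565 to 2868 CPM in old conditioned ones. Dentate granule cell markers, 8 of 8 detected, summed to 673 to 729, 721 to 907, 649 to 755 and 629 to 762 CPM in the same order of groups.

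Among young naive libraries the mean log2 CPM of the choroid plexus markers was 2.77 in library 79, against 5.92 in library 81 and 4.94 in library 83, so the library high in Arc was low in choroid plexus RNA. Library 79 was also the lowest of the 3 in oligodendrocyte markers, at 6.98 against 7.47 and 7.39, and in ependyma markers, at 1.40 against 2.75 and 2.2. In old naive mice the choroid plexus score was 3.82 in library 67, between 5.41 in library 69 and 2.53 in library 71, which had the lowest Arc. Library 67 was the lowest of these in oligodendrocyte markers, at 6.93 against 7.15 in library 69 and 7.09 in library 71. It was the highest in ependyma markers, at 1.94 against 1.78 and 1.53. With the choroid plexus score as a covariate the training difference of Arc over both ages was 0.84 (adjusted p = 0.0741 by edgeR). With the score of dentate granule cell markers it was 0.94 (adjusted p = 0.264 by edgeR), so both ended the call while the direction held. Nuclear-retained RNAs had a mean log2 CPM of 9.79 in library 79, 9.60 in library 83, which had the lowest Arc of all, and 8.89 in library 81, so their order was not that of Arc. With their score as a covariate the difference was 1.06 (adjusted p = 0.0239 by edgeR). The part of tissue make-up in the Arc differences was not tested beyond these fits. The oligodendrocyte, ependyma, CA1 and CA3 scores were not used as covariates. In bulk tissue, fewer cells of a type and less RNA per cell cannot be told apart.

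The Arc gene lies on the minus strand of chromosome 15, from 74669081 to 74672570 in RefSeq on GRCm38 (mm10), a span of 3490 bp. RefSeq places no other gene over it. Mroh4 lies beyond its end and had no count in any library. The lncRNA Gm32994 begins at 74673013, upstream of the Arc start, and is not among the counted genes, and Jrk, which lies further upstream, had 159 to 223 counts per library and a training difference of -0.14 (adjusted p = 0.775 by edgeR). No source used here gives the strand setting of the counting, so whether antisense reads could be counted with Arc is not known.

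The first of the 2 H2A.Z peaks covers the start site. In the authors' deposited table it runs from 74671796 to 74672888 on chromosome 15 of mm10, 1092 bp long, from 318 bp upstream to 774 bp downstream of the start site, and is annotated as exonic on transcript NM_018790. The second lies downstream of the gene, from 74667785 to 74668135, 350 bp long, and begins 945 bp past the gene end. The authors' table counts in how many libraries each peak was called. For the start site peak this was 2 of 3 naive and 3 of 3 conditioned libraries of young mice, and 3 of 3 naive and 2 of 3 conditioned libraries of old mice, 10 of 12 in all. The downstream peak was called in 4 of 12, with 0, 1, 2 and 1 in the same order. No other peak lay within 10 kb of the start site. The nearest on either side, named for Jrk and Bai1, lay 36.3 kb and 83.3 kb away.

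The start site peak overlapped regions of 4 histone marks, a set that 13.3% of promoter peaks and 12 of 30 early genes shared. The table lists, for each peak, the nearest region of 4 marks, whose source the labels do not give. At the Arc start site the peak lay wholly within a region of H3K27me3, the Polycomb mark of silenced genes, 2665 bp long, and within a region of H3K4me1, a mark of enhancers and promoter flanks, 5900 bp long. It overlapped H3K4me3, the mark of start sites, over 86.4% of its length, and H3K27ac, a mark of active elements, over 11.6% (127 bp). The H3K4me3 and H3K27ac regions listed for both Arc peaks were 1000 bp long, so these shares need not give the extent of the marks. Of 12562 promoter peaks, meaning those within 1 kb of a start site, 92.8% overlapped H3K4me3, 86.8% H3K4me1, 66.1% H3K27ac and 35.8% H3K27me3. Of the 30 early activity-regulated genes with a promoter peak, 25 overlapped H3K27me3.

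The downstream peak had another pattern. It lay wholly within regions of H3K4me1, 1800 bp long, and H3K27ac, and was 2482 bp from H3K27me3 and 3809 bp from H3K4me3. That combination was rare, at 488 of all peaks (2.41%).

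**Figure D4:**
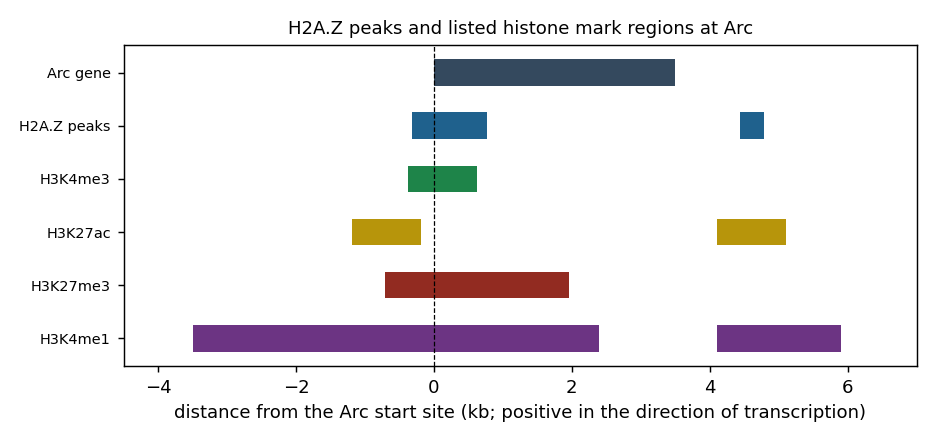
The Arc gene, the 2 H2A.Z peaks and the listed regions of 4 histone marks, by distance from the start site in kb in the direction of transcription. The start site peak lies inside H3K27me3 and H3K4me1, and the downstream peak, past the gene end, inside H3K27ac and H3K4me1.

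H2A.Z at the Arc start site was near its naive level in young conditioned mice, whereas most promoter peaks were lower after training. The difference in the authors' deposited table was 0.12 on the log2 scale (p = 0.765, FDR = 0.881), where the median promoter peak stood at -0.63 and 94.8% of promoter peaks stood lower than Arc. In old mice the authors' deposited table gives -0.62 (p = 0.251, FDR = 0.410), with a promoter median of -1.02 and 85.7% of promoter peaks lower. None of the 4 Arc values for training, over both peaks, passed an FDR of 0.05. Of all peaks 2682 (13.3%) did in young and 2158 (10.7%) in old mice, nearly all of them lower, 2660 and 2150. An interval computed from the deposited value and its p runs from -0.66 to 0.90 in young and from -1.67 to 0.44 in old mice, so a fall of the median size lies within it at both ages, and the difference of Arc from other promoters was not itself tested.

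Between ages the authors' deposited table gives 0.79 for the start site peak in naive mice (p = 0.10, FDR = 0.537; promoter median 0.43, with 84.2% lower) and 0.05 in conditioned mice (promoter median 0.10, with 43.8% lower). No peak of the table passed the DiffBind FDR between ages in either condition (0% and 0%), with 2442 and 112 at an unadjusted p under 0.05. At the downstream peak the authors' deposited table gives -0.03 in young and -0.56 in old mice for training, and 0.12 in naive and -0.41 in conditioned mice for age, with FDR values of at least 0.721. The level of that peak in the authors' deposited table was low, 3.61 to 4.38 log2 units in the 4 groups, above at most 22.5% of all peaks.

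Levels in the authors' deposited table can be set against other peaks within a group, but not between ages or between the old groups. Over all peaks, the median of the level difference minus the deposited log2 difference was 0.33 between ages in naive mice, 0.12 between ages in conditioned mice, -0.22 between conditions in old mice and 0 in young mice. The start site peak stood at 6.28 log2 units in young naive mice, above 30.9% of promoter peaks, and at 6.40 in young conditioned mice, above 60.4%. In old naive mice it stood at 7.40, above 44.3%, and in old conditioned mice at 6.57, above 59.4%. Its rank among promoters was higher in the conditioned group at each age, which restates its differences on another scale.

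**Figure D5:**
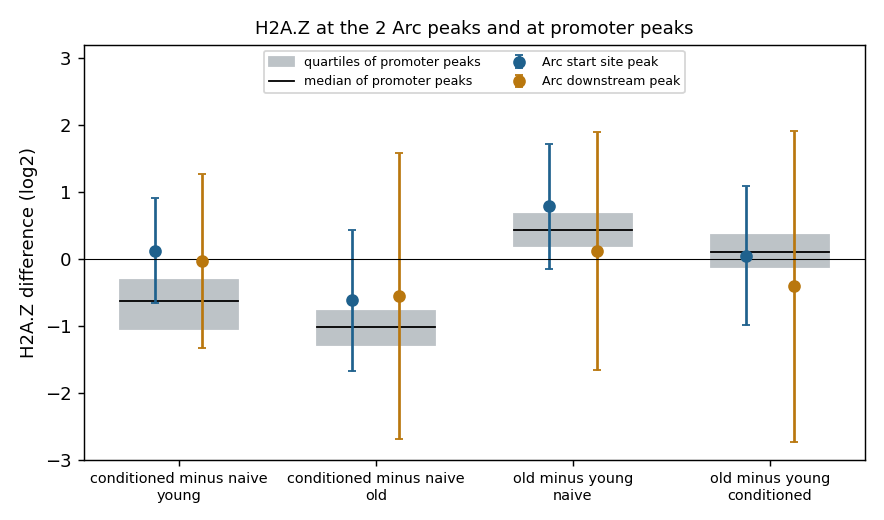
H2A.Z difference (log2) at the 2 Arc peaks in the authors' deposited table, with 95% intervals computed from the deposited value and its p. Grey boxes are the quartiles and black lines the medians of 12562 promoter peaks. The start site peak lies above the quartile box for training at both ages, at 0.12 and -0.62, and every interval at Arc includes 0.

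Set against promoters that overlap the same 4 marks, Arc kept a similar position. Among these 1673 promoter peaks the medians were -0.48 and -0.97 for training in young and old mice, and 94.0% and 85.5% stood lower than Arc. The 2 flanking peaks lay on opposite sides of Arc at both ages. The Jrk peak, upstream, had -0.79 (FDR = 0.186) in young and -1.03 (FDR = 0.189) in old mice in the authors' deposited table. The Bai1 peak, past the gene end, had 1.01 (FDR = 0.506) and 0.37 (FDR = 0.755) there. Among early activity-regulated genes, 28 of 30 promoter values were below 0 in young and 30 of 30 in old mice in the authors' deposited table, with medians of -0.74 and -0.90. Past an FDR of 0.05 were 4 of the 30 in young and 5 of the 30 in old mice, close to the share of all promoter peaks, 14.6% and 15.7%.

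Genes whose RNA followed Arc had a range of H2A.Z values at their start sites. In the authors' deposited table the Fos promoter peak had -3.49 in young mice (FDR = 1.95e-07), the lowest of the 30, and Nr4a1 had -0.16 (FDR = 0.893). The 2 early genes above 0 in young mice, as Arc was, were Dusp1 (0.39, FDR = 0.656) and Egr4 (0.18, FDR = 0.856). Dusp1 also rose in RNA past the threshold. Egr4 RNA was at 4.50 to 5.10 log2 CPM in conditioned and at 3.60 to 4.21 in naive libraries. In old mice Junb, at -0.51 (FDR = 0.437), lay near Arc, and Egr2, at -2.36 (FDR = 0.0159), was the lowest of the 30. Fos, Nr4a1 and Junb overlapped H3K27me3 as Arc did. RNA and H2A.Z came from different libraries, so the naive library that was high in Arc RNA has no H2A.Z value of its own.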

How the data were processed

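RNA values are read counts per gene symbol, whole numbers that the authors deposited for each library without normalization. H2A.Z values come from 1 consensus peak table that the authors deposited on mm10, with log2 folds and log2 mean levels per group and no value per library. Its p-value and FDR columns were computed by the authors, and other columns hold the number of libraries in which a peak was called. Per the submitters' processing notes the tools include TopHat, HTSeq 0.6.1p2, Bowtie2 2.2.1, MACS2 2.0.10, DiffBind 1.12.2 and edgeR 3.8.6. No source used here says which build and annotation served the RNA.

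For the counts, edgeR 4.0.16 in R 4.3.3 was used (TMM, filterByExpr, 1 quasi-likelihood fit of 4 groups, contrasts at an adjusted p of 0.05), a script tested on simulated data. Log2 CPM carries a prior count of 2. Standard errors derive from the F statistic. Exact permutation tests were two-sided on log2 CPM. The sign of H2A.Z folds was reversed, so that positive means higher in conditioned or in old mice, reading the groups written T as conditioned by exclusion. Positions are given as in the table, whose Arc gene start is 1 below that of RefSeq. Intervals for H2A.Z assume a normal statistic. Likeness used Pearson's r over log2 CPM.

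Arc, the gene lists and the comparisons were chosen with earlier results of these data known. Named genes are Arc, from each list the 2 genes of smallest p for training over both ages, the 5 genes most like Arc over 12 and over 6 libraries, and genomic neighbours. Of the genes this rule names, 1 is not reported here. Homer1, Bdnf, Gria1, the individual library values of early genes and the H2A.Z values of single early genes were picked with their values in view. The alternatives were DESeq2 1.42.0, upper-quartile factors, library totals alone, no filter, only the groups compared, 3 marker scores as covariates, each library left out, a prior count of 0.5, an FDR of 0.01 and all peaks within 10 kb.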

Additional observations from a re-analysis of the deposited data

How the results depend on the processing

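Training differences of Arc kept their sign under every setting run. In old mice the call appeared without the filter on low counts (1.18, adjusted p = 0.00812) and with only the groups compared in the fit (1.18, adjusted p = 0.00741). Over both ages 5 of 7 other settings kept it, and it was lost with the choroid plexus score (0.84, adjusted p = 0.0741) or the dentate granule cell score (0.94, adjusted p = 0.264) as a covariate. In young mice 0 of 8 settings passed. Age values near 0 changed sign: in conditioned mice with the choroid plexus (-0.21) or dentate (-0.025) score, in naive mice with the dentate score (0.0024), and for the difference between responses with the dentate score (-0.027). The number of genes past the threshold over both ages, 11, became 19 with DESeq2, 18 without the filter and 7 with the dentate score. In young mice 4 became 8 with DESeq2 or without the filter, 7 with the choroid plexus score, 2 with upper-quartile factors or the dentate score, and 0 with only the groups compared. In old mice 2 became 9 with DESeq2 or without the filter, 8 with only the groups compared, and 0 with the choroid plexus or dentate score. Between ages in naive mice 8 became 34 with DESeq2, 26 without the filter, 21 with the choroid plexus score, 2 with the dentate score and 1 with only the groups compared, and in conditioned mice 5 became 106 with DESeq2 and 3 with the choroid plexus or dentate score. The cause of these changes was not tested.

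Leaving out 1 library gave 0.66 to 1.42 in young mice, 1.06 to 1.41 in old mice and 0.92 to 1.30 over both ages. The age difference ran from -0.44 to 0.33 in naive and from 0.01 to 0.20 in conditioned mice, the difference between responses from -0.25 to 0.52, and the number of genes from 7 (without library 71 or 83) to 30 (without library 79). The number of early activity-regulated genes past it, added after the data were seen, ran from 7 to 19, the highest again without library 79. In the other comparisons the number of all genes past the threshold ran from 0 to 16 for young training and 0 to 8 for old training. Each was highest without library 79. Between ages the number of all genes ran from 1 to 22 in naive mice, highest without library 81, and from 2 to 7 in conditioned mice. Both sign changes came without library 79, the highest naive library. Exact permutation results held under their other settings. The 0 H2A.Z calls at Arc could not change, as an FDR of 0.01 is stricter and the window of 10 kb held the same 2 peaks. No paired analysis was possible because the numbers of the RNA libraries are unique to each library, and the H2A.Z table holds no values per library. Arc held at least 665 counts per library, so spread between libraries, not depth, limits precision. For H2A.Z the depth behind a value is unknown.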
